A study of Rattus norvegicus with 18 samples.

Results

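Voltage-gated calcium channels were followed in the rat hippocampus through 10 of their subunit genes, of 38445 genes counted. Members were taken by gene symbol: Cacna1a, Cacna1b, Cacna1c, Cacna1d, Cacna1e, Cacna1g, Cacna1h and Cacna1i, which encode the pore-forming alpha-1 subunits found in neurons, and the auxiliary alpha-2-delta genes Cacna2d1 and Cacna2d2. RNA was sequenced from the dorsal hippocampus of 18 adult male Sprague-Dawley rats, 1 library a rat and 6 rats a group. Control rats were fed a Lieber-DeCarli liquid diet without ethanol. Ethanol rats received the diet with 9% (v/v) ethanol and were not withdrawn, and withdrawal rats received the same ethanol diet and were then taken off it for 24 h. The labels give 15 or 16 days of diet. All rats were housed singly, and the tissue holds every cell type of the dissected piece, so that a lower level can mean fewer cells of a type or less RNA per cell, which cannot be told apart here.

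A voltage-gated calcium channel opens when the membrane is depolarized and lets calcium into the cell. The alpha-1 subunit forms the pore and the voltage sensor and sets the current type. L-type channels (Cacna1c, Cav1.2, and Cacna1d, Cav1.3) sit mostly on cell bodies and dendrites, are blocked by dihydropyridines, and link depolarization to gene expression. P/Q-type (Cacna1a), N-type (Cacna1b) and R-type (Cacna1e) channels carry much of the calcium that releases transmitter from nerve terminals, and T-type channels (Cacna1g, Cacna1h, Cacna1i) open near the resting potential and support burst firing. The alpha-2-delta subunits bring channels to the membrane and bind gabapentin and pregabalin. Ethanol acutely inhibits several of these channels, and altered calcium channel function has long been studied as a part of the hyperexcitability of alcohol withdrawal.

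The counts on genes added up to 30873228 to 42679748 per rat (median 36302755), and the 10 genes drew 1309 to 29165 read pairs in a library, so that counting error was small beside the spread between rats. Levels are TMM-normalized counts (CPM), in which each library is scaled to a common size. DE means q < 0.1 in a limma-voom model of all 18 rats with 3 surrogate variables, which are unnamed sources of variation estimated from the data, with Benjamini-Hochberg adjustment over the 17853 genes tested. The 4 neuron markers, of which Slc17a7 and Neurod6 mark excitatory neurons and Snap25 and Rbfox3 neurons in general, summed to 2372 to 3821 CPM and were all above 1 CPM in every rat. The regional makeup of the libraries was uneven. Choroid plexus markers summed to 26.2 and 26.3 CPM in withdrawal rats 5 and 4 and to 1043 to 5149 CPM in the other 16 rats, with the highest sums in ethanol rat 1 and withdrawal rat 6 (both 5149 CPM). Withdrawal rat 5 had the lowest summed CA1 markers (104 CPM) and dentate gyrus granule cell markers (77.7 CPM), and ethanol rat 1 had 144 CPM of CA1 markers and the highest thalamic markers (1441 CPM), while the other 16 rats had 226 to 412 CPM of CA1 markers and 189 to 809 CPM of thalamic markers. All 6 control libraries carried index sequences of a set that no other group shared, so an effect of the index set and the difference from control cannot be told apart.

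Per kb of exon, Cacna2d1 and Cacna1e were the most abundant of the 10 genes and the L-type genes the least. In control rats the mean level was 41.6 ± 1.93 CPM per kb for Cacna2d1, 39.6 ± 2.86 for Cacna1e, 26.96 ± 2.08 for Cacna1a and 19.04 ± 2.90 for Cacna1h (SD, n = 6). Cacna1b (14.8 ± 0.792), Cacna1i (14.8 ± 1.06), Cacna1g (11.98 ± 1.67) and Cacna2d2 (11.8 ± 3.16) followed, then Cacna1d (9.67 ± 0.716) and Cacna1c (7.50 ± 0.570). The control ranges did not overlap between Cacna1e and Cacna1a, between Cacna1a and Cacna1h, or between Cacna1d and Cacna1c, and they overlapped between all other neighbours in this order. Cacna1e lay above Cacna1a, and Cacna1a above Cacna1h, in 18 of 18 rats. Cacna1d lay above Cacna1c in 17 of 18 rats.

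**Figure D1:**
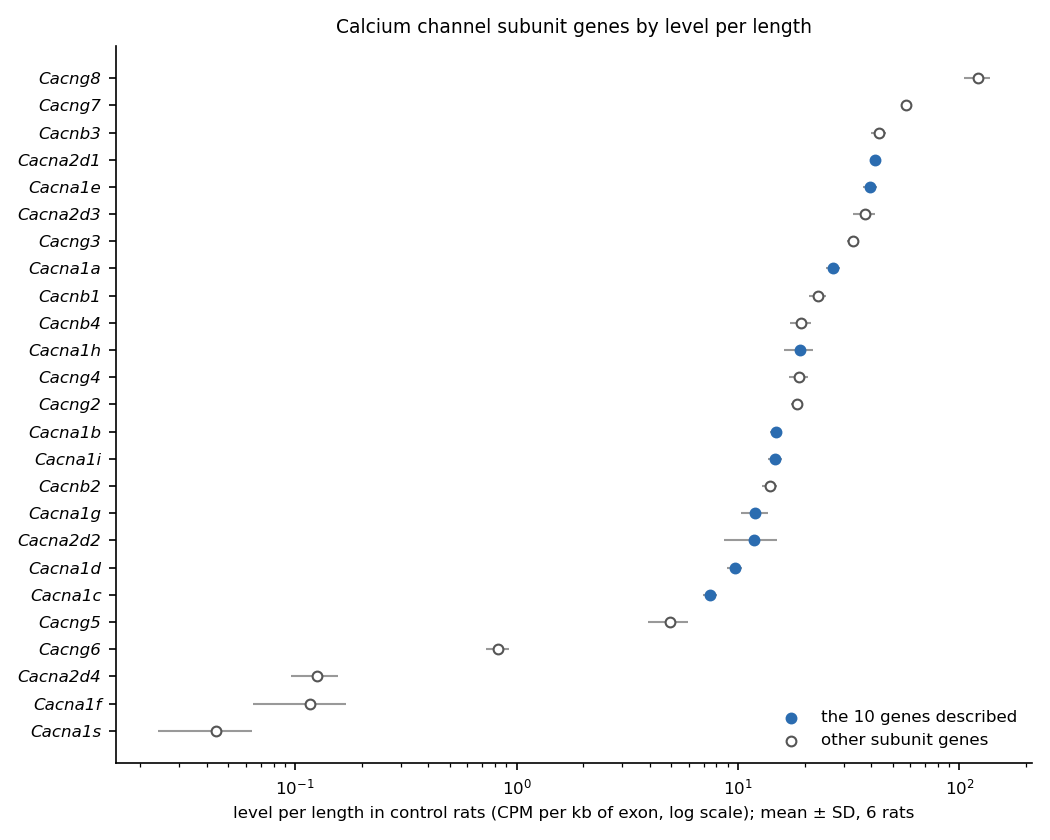
Level per length of calcium channel subunit genes in the 6 control rats, in CPM per kb of exon on a log axis; points are means, lines the SD, filled points the 10 genes described and open points the other subunit genes tested. The 10 genes lie between 7.50 and 41.6 CPM per kb, while the open points run from 0.0439 (Cacna1s) to 122 (Cacng8).

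The R-type gene Cacna1e and the 3 T-type genes held most of the alpha-1 mRNA. As a share of the summed CPM per kb of the 8 alpha-1 genes in control rats, T-type genes held 31.7% ± 1.05, R-type 27.4% ± 1.02, P/Q-type 18.7% ± 0.537, L-type 11.9% ± 0.320 and N-type 10.3% ± 0.322 (SD, n = 6). The summed level was 144 ± 7.87 CPM per kb in control, 137 ± 15.8 in ethanol and 142 ± 11.6 in withdrawal rats, ranges that overlapped between all groups.

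Both L-type genes were lower in withdrawal than in control rats. Cacna1c and Cacna1d were DE and decreased, and the other 8 genes were not DE (2 of 10 genes, against 5.41% of all genes tested, and 2.54% of them decreased). At an unadjusted p under 0.05 the same 2 of 10 genes stood against 19.8% of all genes tested, so that by this count the 10 genes were at the background. No group of rats lay wholly apart from another for any of the 10 genes, which was seen for 1.06% of all genes in this comparison. Cacna1c, an L-type pore, lies on chromosome 4 (chr4:150635808-151270790, minus strand, Rnor_6.0) with 17849 bases of exon. Its level was 122 CPM at the lowest, 134 at the median and 146 at the highest in control rats, 119, 143 and 160 in ethanol rats, and 90.6, 120 and 136 in withdrawal rats. Of the withdrawal rats, 3 lay below all control rats and 1 lay above the control mean. The fitted change from control was -0.15 on the log2 scale (SE 0.041, 95% interval -0.23 to -0.06, q = 0.0653), so that Cacna1c fell by 9.76%.

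Cacna1d, whose channel opens at less depolarized potentials than Cav1.2, lies on chromosome 16 (chr16:6110294-6405022, minus strand, Rnor_6.0) with 18729 bases of exon. Control rats had 162 CPM at the lowest, 183 at the median and 198 at the highest. The corresponding levels were 133, 179 and 184 in ethanol rats and 155, 166 and 179 in withdrawal rats. All 6 withdrawal rats lay below the control mean, and 2 lay below every control rat. The fitted log2 change from control was -0.13 (SE 0.042, 95% interval -0.22 to -0.05, q = 0.0965), so that Cacna1d fell by 8.91%.

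Markers of dentate gyrus granule cells were lower than in control rats in withdrawal rats and, to a lesser extent, in ethanol rats. Their summed level was 169 to 203 CPM in control, 159 to 189 in ethanol and 77.7 to 187 in withdrawal rats (3 of the 4 genes above 1 CPM in every rat). Of the withdrawal rats 5 of 6, and of the ethanol rats 3 of 6, lay below every control rat. In ethanol rats the mean of Cacna1c was not lower than in control rats (139 against 134 CPM), and that of Cacna1d was (169 against 181 CPM). All 3 of the tested markers had lower fitted levels in withdrawal, of which Prox1 was DE (log2 change -0.26, SE 0.080, q = 0.0966). Among the markers of other cell types, only endothelial and astrocyte genes were DE between withdrawal and control. The fitted log2 change of the 4 CA2 and CA3 markers was below 0 in all 4 (median -0.15) and that of the 7 interneuron markers above 0 in all 7 (median 0.18), with no gene of either list DE. Of the 4 endothelial markers, 3 had a log2 change above 0 and 1 below (median 0.20), and Pecam1 (0.34, q = 0.0254) and Flt1 (0.28, q = 0.0623) were DE. Of the 4 astrocyte markers, 1 had a log2 change above 0 and 3 below (median -0.13), and Aldh1l1 (-0.41, q = 0.0483) was DE. The part of these cell types in the L-type decrease was not tested beyond the fits with marker covariates. With the summed dentate markers as a covariate in place of the surrogate variables, a fit added after seeing the data, the log2 change between withdrawal and control was -0.01 (SE 0.073, q = 0.965) for Cacna1c and -0.08 (SE 0.088, q = 0.693) for Cacna1d. These markers themselves differ between the groups (5 of 6 withdrawal rats below every control rat), so this fit cannot separate them from the group.

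Both calls rested on the surrogate variables. Without them the log2 change was -0.22 (SE 0.090, q = 0.355) for Cacna1c and -0.13 (SE 0.073, q = 0.504) for Cacna1d, so the direction was kept while the error grew by 2.23 and 1.75 times. A two-sided exact permutation test on log2 CPM, with no model, gave p = 0.0411 (adjusted 0.369) for Cacna1c and p = 0.0390 (adjusted 0.358) for Cacna1d. When each rat was left out in turn, Cacna1c was DE in 12 of 18 fits (log2 change -0.17 to -0.12) and Cacna1d in 5 of 18 (-0.15 to -0.11). Without ethanol rat 1 and withdrawal rat 5, the rats with the lowest CA1 markers, Cacna1c had a log2 change of -0.13 (q = 0.104) and Cacna1d one of -0.14 (q = 0.0887). With withdrawal rat 6 left out, a rat with many choroid plexus markers, q was 0.257 for Cacna1c and 0.195 for Cacna1d. Neither gene was DE in the test across all 3 groups with limma-voom at 3 surrogate variables (q = 0.103 for Cacna1c and 0.125 for Cacna1d). In it 5.65% of all genes were DE and 0 of these 10 were. The edgeR quasi-likelihood test with the same 3 called 0 and DESeq2 called 2, and 2 had an unadjusted p under 0.05 in limma-voom. The shares of all genes beside these last counts are not given, so they cannot be set against the background.

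The promoters of Cacna1c and Cacna1d differ in base composition. The windows below run from 250 bases before to 50 after the annotated start (300 bases, RefSeq, assembly GRCr8, 5′ to 3′ on the minus strand). They are shown because these genes are the 2 DE members. That of Cacna1c (chr4:154051699-154051998) has the half-site of a cAMP response element in capitals (TGACG, searched as TGACG or CGTCA), and that of Cacna1d (chr16:5527500-5527799) has the GC box core in capitals (GGGCGG, searched as GGGCGG or CCGCCC, with overlapping copies joined).
Cacna1c: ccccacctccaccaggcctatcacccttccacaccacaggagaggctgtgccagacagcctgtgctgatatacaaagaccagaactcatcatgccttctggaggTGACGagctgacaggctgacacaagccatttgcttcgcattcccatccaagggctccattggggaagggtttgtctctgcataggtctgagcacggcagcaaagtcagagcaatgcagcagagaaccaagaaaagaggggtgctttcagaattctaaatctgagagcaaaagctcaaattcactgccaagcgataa
Cacna1d: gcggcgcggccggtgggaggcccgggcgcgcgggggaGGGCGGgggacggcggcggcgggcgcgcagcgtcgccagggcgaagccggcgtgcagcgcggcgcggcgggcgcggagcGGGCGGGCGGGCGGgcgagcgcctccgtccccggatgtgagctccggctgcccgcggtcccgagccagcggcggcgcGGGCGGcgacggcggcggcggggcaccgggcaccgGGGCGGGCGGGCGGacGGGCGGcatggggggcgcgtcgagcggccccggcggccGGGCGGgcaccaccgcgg
The Cacna1c window had 51.7% GC, the median of the 33469 windows of this assembly, with 4 CpG, 1 half-site and 0 GC boxes. The Cacna1d window had 88.7% GC, the highest value found in any window, with 66 CpG, 10 GC boxes and 0 half-sites. Among all windows, 21.2% held the half-site and 33.1% the GC box. Of the 10 genes, 7 had a window (none for Cacna1g, Cacna1h and Cacna1i), and their GC content ran from 51.7% (Cacna1c) to 88.7% (Cacna1d). The letters TTCNNNGAA, the core that STAT factors bind, were found in 0 of their windows and in 8.87% of all windows. These letters describe the windows and do not show binding.

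**Figure D2:**
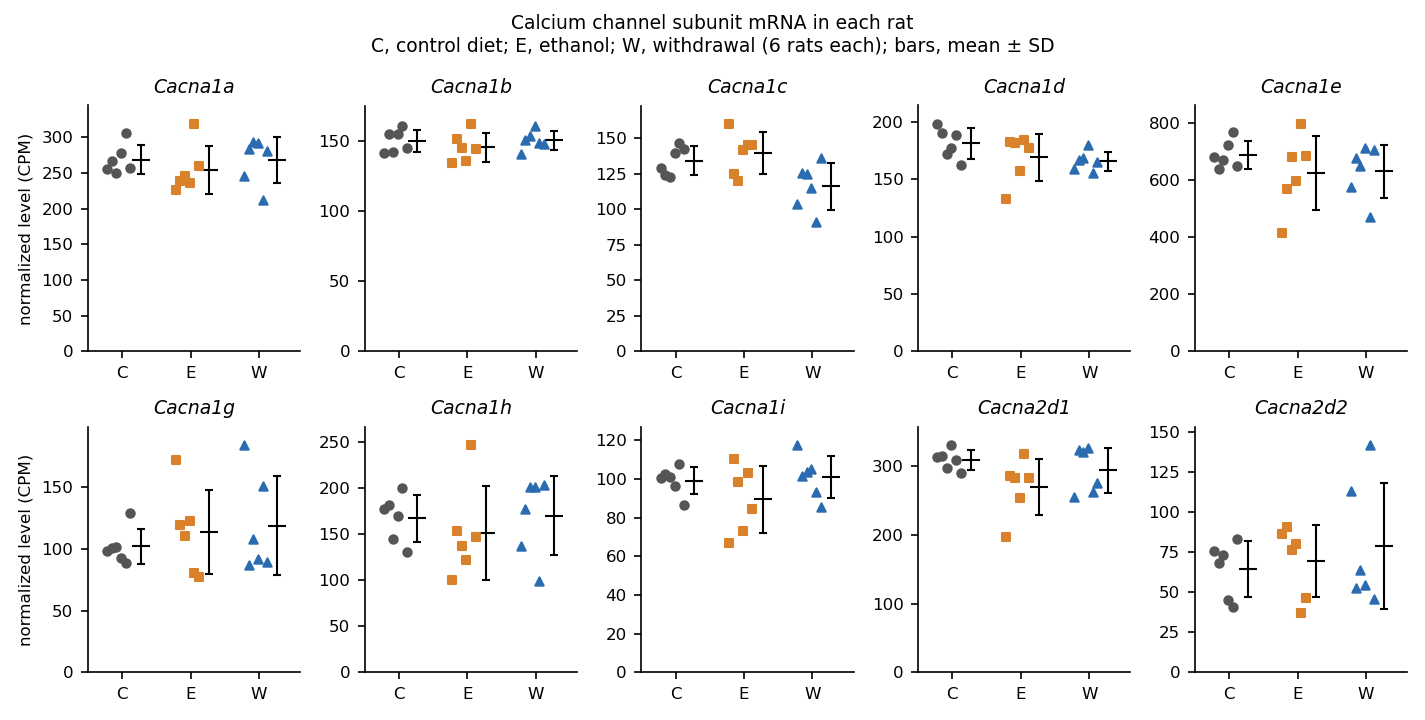
Normalized level (CPM) of each of the 10 genes in every rat; points are rats of the control (C), ethanol (E) and withdrawal (W) groups, bars the mean ± SD of 6 rats, and every axis starts at 0. Cacna1c in withdrawal rats runs from 90.6 to 136 CPM against 122 to 146 in control rats, and Cacna2d2 in withdrawal rats runs from 45.9 to 142 CPM.

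The share of L-type mRNA among the alpha-1 genes restates the decrease of Cacna1c and Cacna1d as a ratio. It was 11.5% at the lowest, 11.8% at the median and 12.4% at the highest in control rats, 10.9%, 12.6% and 13.6% in ethanol rats, and 10.1%, 10.9% and 11.2% in withdrawal rats. All 6 withdrawal rats lay below all 6 control rats, although neither gene alone separated these groups. How often ratios of other genes separate these groups was not computed, so this has no background beside it. Withdrawal rats overlapped with ethanol rats through 1 animal, ethanol rat 5 (10.9%). The share is a ratio within a library, so the scaling between libraries does not enter it. Of the 2 rats with the fewest CA1 markers, ethanol rat 1 had the highest share of all 18 rats (13.6%) and withdrawal rat 5 had 11.2%. The share is built on the same decrease of Cacna1c and Cacna1d and is given as a description without a test. It adds no separate support for either call. The ranges of the shares overlapped between control and withdrawal rats for the other 4 current types, with means in withdrawal of 34.2% ± 2.85 for T-type, 25.5% ± 2.09 for R-type, 18.9% ± 0.984 for P/Q-type and 10.5% ± 0.889 for N-type genes (SD, n = 6).

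**Figure D3:**
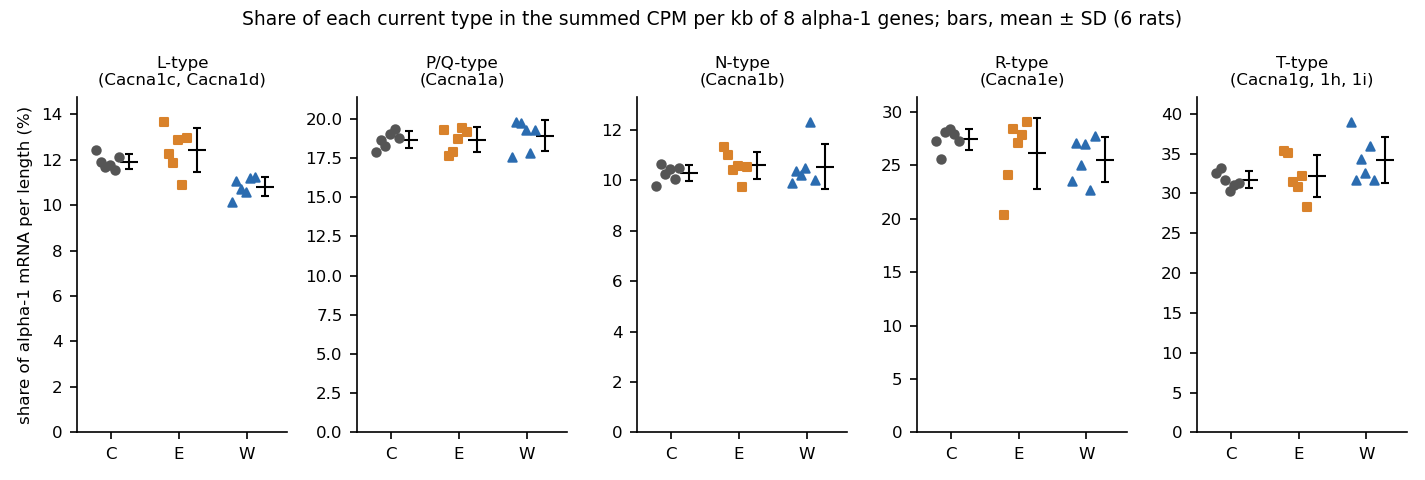
Share (%) of each current type in the summed CPM per kb of the 8 alpha-1 genes, one point a rat, with the mean ± SD of 6 rats and axes that start at 0. L-type is the one panel in which withdrawal rats (10.1% to 11.2%) lie wholly below control rats (11.5% to 12.4%). This ratio is built from the DE genes Cacna1c and Cacna1d and was not tested.

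Chronic ethanol without withdrawal gave no DE gene among the 10 by limma-voom with 3 surrogate variables, and also 0 at an unadjusted p under 0.05, against 12.5% of all genes tested. Both edgeR and DESeq2, with or without surrogate variables, called 0 of them, where edgeR called 62 without and 96 with surrogate variables over all genes and DESeq2 431 and 473. Of all genes, 0.493% were DE and 1.32% had groups that did not overlap. The lowest q was that of Cacna2d1, the alpha-2-delta gene through which gabapentin relieves pain. Its level was 290 CPM at the lowest, 312 at the median and 332 at the highest in control rats and 198, 283 and 318 in ethanol rats. Of the ethanol rats, 5 lay below every control rat and ethanol rat 5 lay inside the control range. The log2 difference from control was -0.09 (SE 0.051, 95% interval -0.20 to 0.01, q = 0.478), and without surrogate variables it was -0.21 (SE 0.093, q = 0.405). The exact permutation test gave p = 0.0260 (adjusted 0.310, two-sided). Over all 10 genes the fitted differences ran from -0.09 (Cacna2d1) to 0.05 (Cacna2d2), with a median of -0.01, and of -0.10 without surrogate variables. For all genes tested the median was 0.00046 and -0.0012.

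No difference of the L-type genes between ethanol and control rats was detected. The log2 difference was -0.04 (95% interval -0.13 to 0.06) for Cacna1c and -0.01 (-0.10 to 0.09) for Cacna1d. Without surrogate variables it was 0.05 (-0.14 to 0.24, q = 0.863) for Cacna1c, the direction of the group means (139 CPM in ethanol, 134 CPM in control), and -0.11 (-0.26 to 0.05, q = 0.603) for Cacna1d. None of these intervals excludes a decrease or an increase of a few percent.

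Between withdrawal and ethanol rats, no gene of the 10 was DE by limma-voom with 3 surrogate variables (2.89% of all genes were DE, and 1.22% had groups that did not overlap), while 2 had an unadjusted p under 0.05, against 16.9% of all genes. These 2 were the L-type genes. Cacna1c had a log2 difference of -0.11 (SE 0.045, q = 0.216) and Cacna1d one of -0.13 (SE 0.047, q = 0.174). Without surrogate variables the difference was -0.27 (SE 0.090, q = 0.134) for Cacna1c and -0.02 (SE 0.073, q = 0.894) for Cacna1d, which thus shrank by more than 5 times. The edgeR test called 0 of the 10 in either form, and DESeq2 called Cacna1c without surrogate variables (log2 difference -0.26, q = 0.0740) and none with them. Without surrogate variables DESeq2 called 1443 of all 17853 genes in this comparison, so that 1 of 10 genes lay near the background. All 6 withdrawal rats lay below the ethanol mean of Cacna1c (139 CPM), and 3 lay below every ethanol rat. This comparison and that with control share the 6 withdrawal rats. Within the index set that ethanol rats shared with 2 withdrawal rats, 0 of the 10 genes were DE, with log2 differences of -0.28 (q = 0.770) for Cacna1c and -0.04 (q = 0.945) for Cacna1d.

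**Figure D4:**
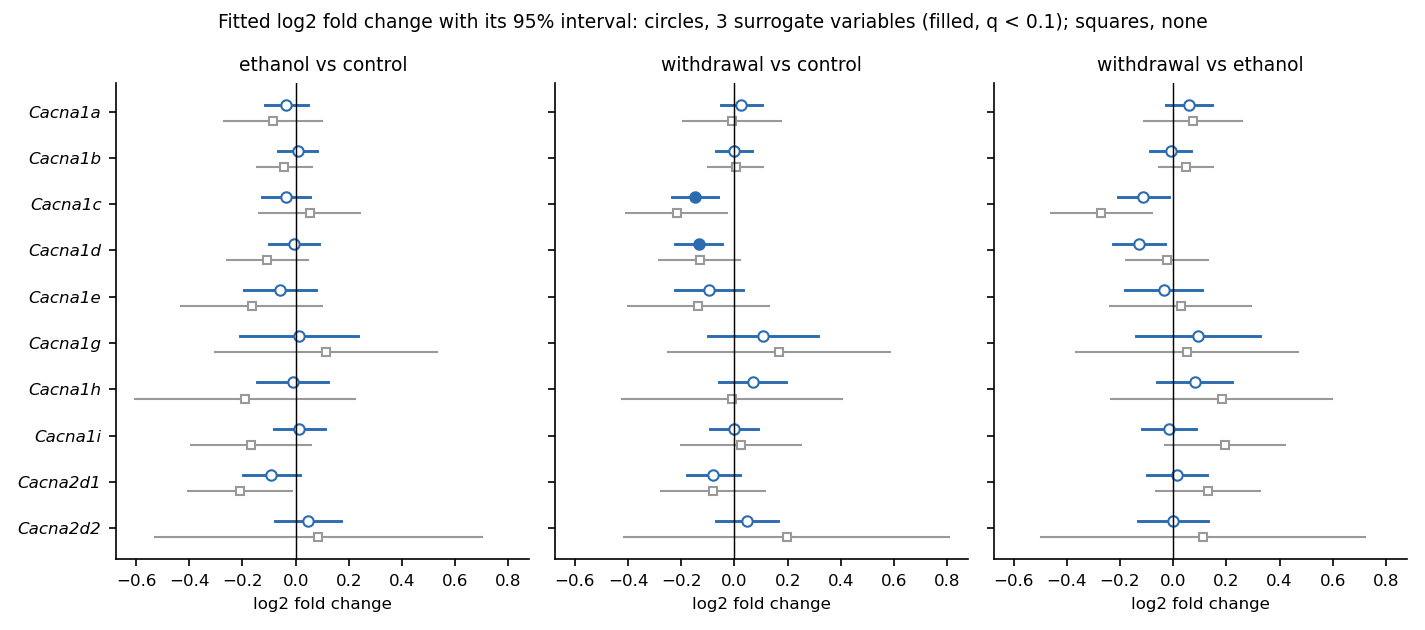
Fitted log2 fold change of the 10 genes in the 3 comparisons with its 95% interval, with 3 surrogate variables (circles, filled where q < 0.1) and without (squares). The 2 filled circles are Cacna1c (-0.15) and Cacna1d (-0.13) in withdrawal vs. control, and the standard errors without surrogate variables are larger for every gene, up to 5.28 times for Cacna2d2.

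The channels of the nerve terminal showed small differences with surrogate variables, with wider intervals without them. Cacna1a, the P/Q-type pore, had 250 CPM at the lowest, 262 at the median and 306 at the highest in control rats, 227, 243 and 319 in ethanol rats, and 212, 283 and 293 in withdrawal rats. Its log2 difference between withdrawal and control was 0.03 (95% interval -0.05 to 0.10), and -0.01 (-0.20 to 0.17) without surrogate variables. Cacna1b, the N-type pore, had the smallest spread in each group but the control rats, where Cacna2d1 was steadier (coefficient of variation 5.35%, 7.10% and 4.34% for Cacna1b in control, ethanol and withdrawal rats, 4.65% for Cacna2d1 in control rats). Its range was 142 to 161 CPM in control, 135 to 163 in ethanol and 141 to 161 in withdrawal rats, and the log2 difference between withdrawal and control was -0.002 (95% interval -0.07 to 0.07). With surrogate variables Cacna1b thus gives the tightest bound of the 10, with changes of more than 5% in either direction outside the interval. Without them the interval was -0.10 to 0.11, which does not exclude changes of 5%.

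Cacna1e, the R-type pore, had 639 CPM at the lowest, 676 at the median and 771 at the highest in control rats, 417, 640 and 799 in ethanol rats, and 472, 664 and 712 in withdrawal rats. The lowest ethanol and withdrawal levels were those of ethanol rat 1 and withdrawal rat 5. The log2 difference between withdrawal and control was -0.10 (SE 0.061, q = 0.405), and 4 of 6 withdrawal rats lay below the control mean.

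Of the T-type genes, Cacna1g and Cacna1h varied widely between rats of a group. Cacna1g, which is strongly expressed in thalamic relay neurons, had 88.8 CPM at the lowest, 99.5 at the median and 129 at the highest in control rats, 77.5, 115 and 172 in ethanol rats, and 87.3, 99.9 and 184 in withdrawal rats. The highest levels were found in withdrawal rat 1 (184 CPM), ethanol rat 1 (172 CPM), withdrawal rat 5 (151 CPM) and control rat 6 (129 CPM). The log2 difference of Cacna1g between withdrawal and control was 0.11 (95% interval -0.10 to 0.32, q = 0.578), the widest interval of the 10 genes with surrogate variables. Cacna1h, the T-type pore most sensitive to nickel, had 131, 174 and 200 CPM in control, 101, 142 and 247 CPM in ethanol, and 99.5, 189 and 204 CPM in withdrawal rats as the lowest, median and highest level. Ethanol rat 5 was the highest of all 18 rats, and ethanol rat 1 and withdrawal rat 5 were the lowest of their groups. Its log2 difference between withdrawal and ethanol was 0.08 (SE 0.067, q = 0.575), and without ethanol rat 5 it was 0.20 (q = 0.0933). Cacna1i, the T-type pore with the slowest kinetics, ranged from 86.7 to 108 CPM in control, 66.9 to 110 in ethanol and 85.7 to 118 in withdrawal rats, and its log2 difference between withdrawal and control was -0.002 (95% interval -0.09 to 0.09).

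The alpha-2-delta genes differed in their spread between rats. Cacna2d1 was even across control rats, and in withdrawal rats it had 256 CPM at the lowest, 299 at the median and 327 at the highest, with a log2 difference from control of -0.08 (SE 0.048, q = 0.373). Cacna2d2, whose protein is found in subsets of neurons that include interneurons and Purkinje cells, had 40.8, 70.8 and 83.5 CPM in control, 37.1, 78.5 and 91.0 CPM in ethanol, and 45.9, 59.3 and 142 CPM in withdrawal rats. Withdrawal rats 5 (142 CPM) and 1 (114 CPM) lay above every other rat, and the other 4 withdrawal rats lay within the control range. The group mean of Cacna2d2 was thus higher in withdrawal (78.9 ± 39.5 CPM, SD, n = 6) than in control (64.5 ± 17.3 CPM) while its median was lower, and the fitted log2 difference was 0.05 (SE 0.055, q = 0.684). Cacna2d2 made up 21.9% ± 5.28 of the summed per-length level of the pair in control, 26.1% ± 8.63 in ethanol and 26.1% ± 11.0 in withdrawal rats.

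Several of these levels differed between rats along with the regional markers of the library. The 2 rats with the lowest CA1 markers, withdrawal rat 5 and ethanol rat 1, had the lowest 2 levels of all 18 rats for Cacna1a, Cacna1e, Cacna1h and Cacna1d, and both were among the 3 highest for Cacna1g. Interneuron markers, all 7 of them above 1 CPM in every rat, summed to 836 CPM in withdrawal rat 5 and 698 CPM in withdrawal rat 1, the 2 highest values, and these rats also had the 2 highest levels of Cacna2d2 and the 2 lowest sums of dentate gyrus granule cell markers (77.7 and 119 CPM). For all rats, interneuron markers ranged from 423 to 592 CPM in control, 390 to 625 in ethanol and 462 to 836 in withdrawal rats. CA1 markers ranged from 278 to 399 CPM in control, 144 to 391 in ethanol and 104 to 412 in withdrawal rats, with 2 of the 3 genes above 1 CPM in every rat. The 7 thalamic markers, all above 1 CPM in every rat, summed to 242 to 735 CPM in control, 191 to 1441 in ethanol and 189 to 557 in withdrawal rats. Cacna1c was highest of all rats in ethanol rat 1 (160 CPM) and lowest in withdrawal rat 5 (90.6 CPM), which both had few CA1 markers. Its 2 lowest rats, withdrawal rats 5 and 1 (103 CPM), were the 2 lowest in dentate markers, and ethanol rat 1 had 187 CPM of dentate markers, inside the control range. The part of the regional makeup in the group differences was not tested beyond the fits given here and the one with dentate markers above, in which Cacna1c had a log2 change between withdrawal and control of -0.22 (q = 0.283) with thalamic markers and -0.19 (q = 0.321) with CA1 markers as a covariate in place of the surrogate variables, and Cacna1d one of -0.14 (q = 0.103) and -0.10 (q = 0.443).

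**Figure D5:**
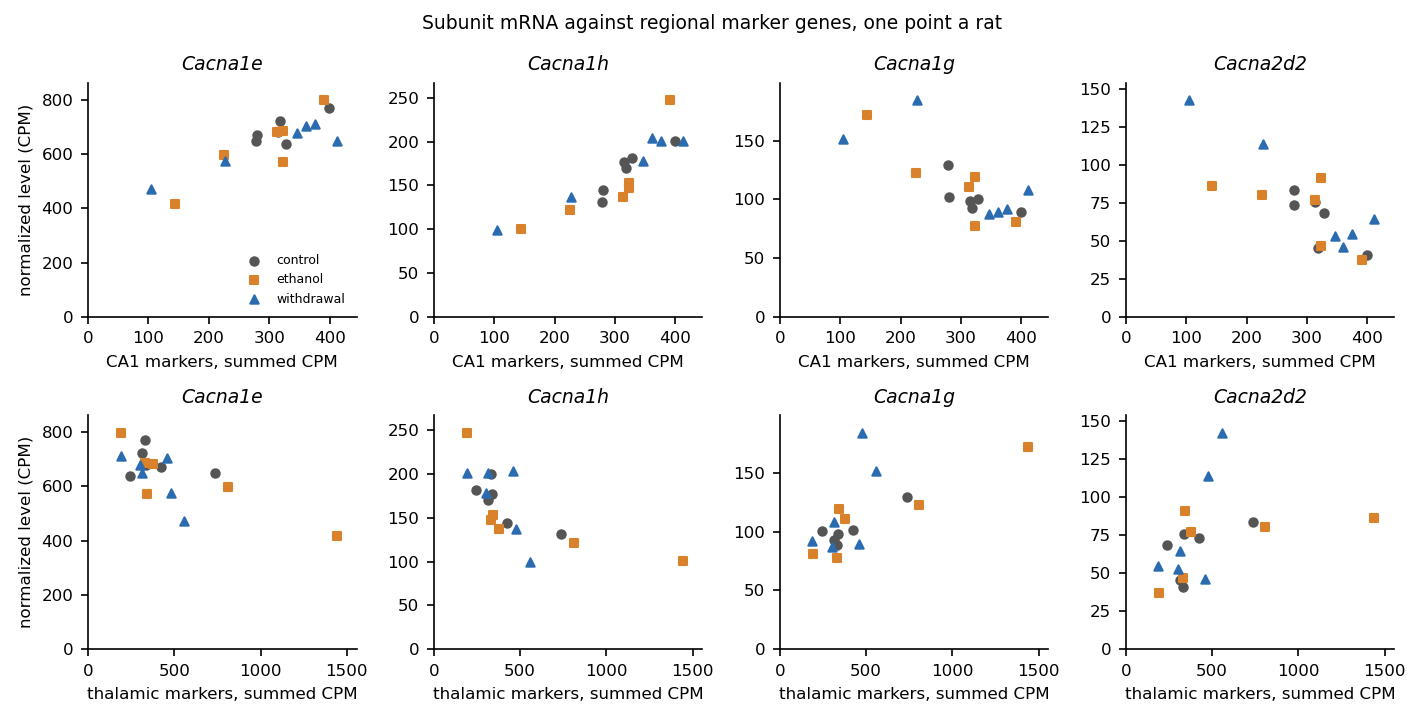
Normalized level (CPM) of Cacna1e, Cacna1h, Cacna1g and Cacna2d2 against the summed CPM of 3 CA1 markers (top) and 7 thalamic markers (bottom), one point a rat, marked by group. Cacna1e and Cacna1h are lowest in the rats with 104 and 144 CPM of CA1 markers, and Cacna2d2 reaches 142 CPM in the rat with 104.

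The other subunits of the same channels were also measured. Beta subunits bind the pore inside the cell and set its trafficking and gating, and gamma subunits include the proteins that carry AMPA receptors to synapses. Of the beta genes, Cacnb3 was the most abundant per length (43.3 CPM per kb in control rats), followed by Cacnb1 (22.96), Cacnb4 (19.3) and Cacnb2 (13.9). None was DE in any comparison with 3 surrogate variables. The beta gene with the lowest q was Cacnb3, with 147 ± 11.2 CPM in control, 156 ± 8.79 in ethanol and 127 ± 18.3 in withdrawal rats (SD, n = 6). Its log2 difference was -0.28 (SE 0.090, q = 0.125) between withdrawal and ethanol, -0.31 (q = 0.0836) without surrogate variables, and -0.19 (SE 0.080, q = 0.193) between withdrawal and control. All 6 withdrawal rats had less Cacnb3 than any ethanol rat (highest 139 against lowest 141 CPM). Groups that did not overlap were seen for 1.22% of all genes in this comparison, and Cacnb3 was picked by its q. Cacna2d3, the alpha-2-delta gene outside the 10, had 37.3 CPM per kb in control rats, near Cacna2d1 and Cacna1e, and Cacna2d4 was low with 0.126. The muscle and retina pores Cacna1s (3 to 23 read pairs in a rat) and Cacna1f (8 to 69) were near the limit of detection. Among the gamma genes, Cacng8 (122 CPM per kb in control rats) and Cacng7 (57.2) led, Cacng3 had 33.2, Cacng4 18.9, Cacng2 18.6, Cacng5 4.96 and Cacng6 0.825, and Cacng1 was too low to be tested (0 to 5 read pairs).

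In the wider pathway, 56 of 58 listed genes were tested, among them channel-binding proteins, calcium-dependent enzymes, and the release channels, pumps and exchangers of intracellular calcium. None was DE between withdrawal and control or between ethanol and control with limma-voom and 3 surrogate variables, while 10 and 5 of the 56 had an unadjusted p under 0.05 (17.9% and 8.93%, against 19.8% and 12.5% of all genes tested). Without surrogate variables Itpr2 was DE between ethanol and control (log2 difference -0.34, q = 0.0788, against -0.27 and q = 0.109 with 3), with 29.8 ± 3.88 CPM in ethanol and 37.5 ± 1.99 CPM in control rats (SD, n = 6). These groups did not overlap, as was seen for 1.32% of all genes in this comparison. Camk2d, the delta chain of the calcium/calmodulin-dependent kinase, was the 1 gene DE between withdrawal and ethanol, with a log2 difference of 0.21 (SE 0.050, q = 0.0614) and of 0.06 (q = 0.926) without surrogate variables. It is 1 of 56 genes, against 2.89% of all genes, and 17.9% of the 56 had an unadjusted p under 0.05, against 16.9% of all genes. The level of Camk2d was 86.5 ± 35.8 CPM in ethanol and 90.8 ± 41.2 CPM in withdrawal rats (SD, n = 6), so the unadjusted means lay well within the spread. In the test across all 3 groups, Camk2d (q = 0.0697), Itpr2 (q = 0.0728), which encodes an inositol trisphosphate receptor, and Cabp1 (q = 0.0769), a calcium-binding protein that regulates L-type and P/Q-type channels, were DE, which is 3 of 56 genes against 5.65% of all genes. Itpr2 and Cabp1 were named after their values were seen. Without surrogate variables q was 0.937 for Camk2d, 0.0670 for Itpr2 and 0.659 for Cabp1. The median log2 difference of the 56 genes was -0.02 for withdrawal vs. control, -0.04 for ethanol vs. control and 0.01 for withdrawal vs. ethanol. For the 10 channel genes it was -0.002, -0.01 and -0.004, and without surrogate variables it was -0.01, -0.10 and 0.06.

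The genes whose log2 CPM followed each leading member most closely over the 18 rats are given as a description, since all rats of all groups enter and share the scaling and the regional makeup noted above. For Cacna1c they were LRRTM1 (Pearson r = 0.952), a synaptic adhesion protein, the beta subunit gene Cacnb2 (0.936) and Inhbb (0.935), a chain of activin B. For Cacna2d1 they were Gda (0.963), Pde1a (0.946) and Exd2 (0.941), which encode guanine deaminase, a calcium/calmodulin-stimulated phosphodiesterase and an exonuclease. For Cacna1d they were Zfp609 (0.930), Chrd (0.912) and Tbc1d1 (0.902), of which Chrd encodes the secreted inhibitor chordin.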

How the data were processed

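RNA-Seq data of 18 rat hippocampus libraries (6 control, 6 ethanol, 6 withdrawal) were analysed from the deposited counts. The authors aligned paired reads from stranded libraries with STAR 2.5.2a to Rnor_6.0 (NCBI annotation) and deposited the read pairs that featureCounts 1.5.0 assigned to each gene (raw counts, by strand, on exons), in which read pairs with several alignments were not counted. Multi-copy stretches are therefore undercounted. Groups came from the treatment labels. Of 38445 gene identifiers, 29322 were named from the RefSeq table of assembly GRCr8, used for names and promoter windows only.

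Counts were normalized by TMM (edgeR 4.0.16), and the 17853 genes above 0.5 CPM in 1 rat or more entered limma 3.58.1 (voom) in R 4.3.3 with 3 surrogate variables from sva 3.50.0 (log2 CPM, prior count of 2). Each comparison came from 1 model of all 18 rats, with Benjamini-Hochberg adjustment. Total counts per rat were 30873228 to 42679748. Of 45 pairs of rats of a group, none matched within sampling noise (lowest chi-square per degree of freedom 5.74). The test was tested on simulated data. Each member was also compared with an exact permutation test (two-sided) over the 924 ways to divide 12 rats, where 0.00216 is the smallest p. Levels per length are CPM divided by exon kb.

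The members, the gene lists and the tests were chosen with earlier results of these data known. The genes named are the 10 members, the other subunit genes by level, the listed pathway genes with q < 0.1 in any comparison, and the 3 genes most correlated with each comparison's leading member. Alternatives were other numbers of surrogate variables, edgeR quasi-likelihood, DESeq2 1.42.0, other scalings, filters and thresholds, 2-group models, replicate blocks, sample weights and leaving out rats. The fits with marker covariates, and those without ethanol rat 1 and withdrawal rat 5, were added after seeing the data. Figures were drawn with matplotlib 3.10.9 in Python 3.11.15.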

Additional observations from a re-analysis of the deposited data

Results flagged for a closer look

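In 30 groups of 6 rats (10 genes in 3 groups), the highest or the lowest rat was compared with its neighbour by Dixon's ratio, the gap divided by the range of the group; the rats named here passed its 95% limit. Chance alone gives about 1 such rat in 20 groups. Ethanol rat 5 stood apart with 319 CPM of Cacna1a (ratio 0.647) and 247 CPM of Cacna1h (ratio 0.642), the highest levels of both genes among all 18 rats. Control rat 6 stood apart with 129 CPM of Cacna1g (ratio 0.680). This rat also had the most thalamic markers of the control group (735 CPM), and ethanol rat 5 had the most CA1 markers of the ethanol group (391 CPM). Their part in these levels was not tested.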

How the results depend on the processing

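Under the other models, the fitted log2 change of Cacna1c and Cacna1d between withdrawal and control stayed below 0. That of Cacna1c under the dentate gyrus covariate (-0.01) lay within its error of 0 and shows no decrease. Of 1180 fitted differences of the 10 genes 169 changed sign, none of them called. As 2 of the 30 differences were called, few of these fits could have reversed a call. In withdrawal vs. control, 0 of the 10 genes instead of 2 were DE without surrogate variables (limma-voom, edgeR or DESeq2), with 2 or 5 of them, without a filter on low counts, at q < 0.05, with a thalamic, CA1 or dentate gyrus marker covariate, and without ethanol rat 1 and withdrawal rat 5 and without surrogate variables. There was 1 with only the 2 groups in the model (Cacna1c) and 1 without those 2 rats with 3 surrogate variables (Cacna1d). Leaving out each rat gave 0 to 2 for withdrawal vs. control (0 without control rat 3, 4, 5 or 6 or withdrawal rat 6), 0 to 1 for withdrawal vs. ethanol, and 0 to 2 across all 3 groups. Between withdrawal and ethanol, 1 was DE by DESeq2 without surrogate variables and with the CA1 covariate. Across all 3 groups, 2 were DE by DESeq2 with surrogate variables, with the filter of 6 rats and with sample weights, and 1 with upper-quartile scaling. The shares of all genes in these fits across all 3 groups are not given. The cause was not tested.

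For all genes, the number DE between withdrawal and control (965) was 41 without surrogate variables, 601 with 2 and 264 with 5, 33 by edgeR and 435 by DESeq2 without them, 1624 by DESeq2 with 3, 490 without a filter, 384 at q < 0.05, 52 without the 2 rats and surrogate variables, and 245, 110 and 70 with thalamic, CA1 and dentate covariates. Between ethanol and control (88) it was 50 without surrogate variables, 332 with 5, 431 and 473 by DESeq2 without and with them, 9 without a filter, 10 at q < 0.05, 28 with only 2 groups, 435 with sample weights, 290 and 7 without the 2 rats, with and without surrogate variables, and 197 with the dentate covariate. Between withdrawal and ethanol (516) it was 275 with 2 and 886 with 5 surrogate variables, 1443 and 1176 by DESeq2 without and with 3, 192 without a filter, 119 at q < 0.05, 0 with only 2 groups, 1329 with sample weights, 113 without the 2 rats and surrogate variables, and 789 and 1504 with thalamic and CA1 covariates. Leaving out each rat gave 23 to 1948, 0 to 257 and 0 to 1856, with 23 when withdrawal rat 6 was left out.

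Rats with the same replicate number deviated together in 4 of 18 pairs (r over 0.1, range -0.32 to 0.38). Most of these were in ethanol vs. control, where numbers 2, 3 and 5 (r = 0.28, 0.19 and 0.33) each matched their own number best. The paper states that rats were pair fed, and the labels do not say whether the numbers mark those pairs. The numbers were not taken as pairs in the main model, and a fit with them as a block is given here. With the replicate block, 0 of the 10 genes were DE between withdrawal and control with and without surrogate variables, and over all genes 0, 0 and 14 (without) were DE in the 3 comparisons, or 29 in ethanol vs. control and 97 in withdrawal vs. ethanol (with).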
